A study of Sus scrofa and Bos taurus with 31 samples.

Results

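ETS1, FLI1, ERG and ETS2 encode transcription factors of the ETS family and lie as 2 pairs of neighbours on pig chromosomes 9 and 13. In the Sscrofa11.1 assembly, ETS1 (chr9:55377264-55512180, minus strand) and FLI1 (chr9:55612905-55749784, plus strand) face away from each other, and so do ERG (chr13:201999237-202302572, minus strand) and ETS2 (chr13:202464341-202483534, plus strand). Each gene was taken with 10 kb on either side, which gave windows of 154.9 kb for ETS1, 156.9 kb for FLI1, 323.3 kb for ERG and 39.2 kb for ETS2. The stretches left between the windows were 80.7 kb from ETS1 to FLI1 and 141.8 kb from ERG to ETS2 and are called the spans. The 4 genes are 4 of 20674 protein-coding genes of the annotation. ETS1 and FLI1 were chosen by their peak bases in spleen in these same libraries, and ETS2 and ERG as their paralogs, so the levels below are a description and carry no test.

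Open chromatin was measured by ATAC-seq, which uses a transposase to insert sequencing adapters where nucleosomes leave the DNA free. The 16 pig libraries came from 8 tissues (spleen, lung, adipose, liver, skeletal muscle, cerebellum, cerebral cortex and hypothalamus) of the same 2 animals, P348 and P350. Both were castrated male Yorkshire pigs of 1 litter, killed at 6 months of age, and the labels name no treatment. Nuclei had been prepared from fresh tissue and frozen before use, and the cattle libraries of the series are not used here. The lists held between 99960 and 217308 peaks, or 64.14 to 155.65 Mb of peaks, per library; spleen had 105278 and 104299 peaks and lung had 171981 and 193317. Because list length differed in this way, the level of a gene is given as its peak bases per Mb of all peak bases of the library, and values that are not scaled are given beside it.

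ETS proteins bind DNA through a winged helix-turn-helix domain that reads the letters GGAA, and flanking letters and partner proteins set which family member binds where. ETS1 is a regulator of lymphocyte development, FLI1 of blood stem cells, megakaryocytes and endothelium, and ERG of endothelial identity and blood stem cells; ETS2 acts downstream of growth factor signalling in many cell types. ETS1 and ETS2 are close paralogs, as are FLI1 and ERG, and the order of each neighbouring pair stems from the duplication of 1 ancestral pair. Spleen is rich in lymphocytes and macrophages, and lung in endothelium and epithelium.

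The regions below that were open in 1 tissue are read most easily against their letters. A region is a merged stretch of overlapping peaks of the 16 libraries, and a tissue counted as open there if P348 and P350 each had a peak. By that rule 13 regions of the loci were open in spleen and in no other tissue, and 9 in lung and in no other tissue. The 5 of these with the highest fold enrichment in the weaker animal are shown first, as the 300 bases around the middle of each region on the plus strand of Sscrofa11.1, with GGAA or its reverse complement TTCC in capitals. A further 2 of the 10 regions open in all 8 tissues, 1 in an ERG intron and 1 in the ERG-ETS2 span, are shown for contrast. Neither lies at an annotated start, unlike some of the 10.
ETS1 intron, spleen only, chr9:55487096-55487395: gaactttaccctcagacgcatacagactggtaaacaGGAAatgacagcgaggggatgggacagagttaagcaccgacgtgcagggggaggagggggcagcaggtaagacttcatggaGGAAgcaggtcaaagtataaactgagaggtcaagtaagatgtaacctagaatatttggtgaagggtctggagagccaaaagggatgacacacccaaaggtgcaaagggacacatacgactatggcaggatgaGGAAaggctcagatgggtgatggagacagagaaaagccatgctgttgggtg
ETS1 intron, spleen only, chr9:55435631-55435930: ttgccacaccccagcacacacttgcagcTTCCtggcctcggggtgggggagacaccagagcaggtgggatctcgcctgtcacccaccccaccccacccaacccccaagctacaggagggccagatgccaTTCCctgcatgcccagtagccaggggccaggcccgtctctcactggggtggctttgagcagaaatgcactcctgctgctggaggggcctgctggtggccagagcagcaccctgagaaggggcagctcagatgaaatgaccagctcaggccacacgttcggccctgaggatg
FLI1 intron, lung only, chr9:55737495-55737794: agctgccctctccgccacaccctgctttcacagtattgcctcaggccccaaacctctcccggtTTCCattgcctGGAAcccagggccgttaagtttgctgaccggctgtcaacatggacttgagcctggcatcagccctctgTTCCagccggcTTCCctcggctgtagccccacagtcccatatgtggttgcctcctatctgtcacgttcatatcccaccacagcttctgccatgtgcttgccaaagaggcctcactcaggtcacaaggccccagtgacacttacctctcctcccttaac
ERG-ETS2 span, spleen only, chr13:202428625-202428924: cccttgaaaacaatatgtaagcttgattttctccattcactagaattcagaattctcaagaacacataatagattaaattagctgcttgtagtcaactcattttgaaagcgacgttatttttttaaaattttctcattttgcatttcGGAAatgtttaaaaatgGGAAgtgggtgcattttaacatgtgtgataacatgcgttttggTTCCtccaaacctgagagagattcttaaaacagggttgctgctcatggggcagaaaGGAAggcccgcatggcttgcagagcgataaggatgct
FLI1 intron, spleen only, chr9:55640982-55641281: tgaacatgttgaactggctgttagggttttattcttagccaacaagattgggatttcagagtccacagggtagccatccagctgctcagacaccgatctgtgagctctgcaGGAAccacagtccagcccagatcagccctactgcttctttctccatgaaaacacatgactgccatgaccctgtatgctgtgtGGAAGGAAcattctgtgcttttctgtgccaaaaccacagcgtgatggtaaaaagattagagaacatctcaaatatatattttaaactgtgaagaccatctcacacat
ERG intron, all 8 tissues, chr13:202290555-202290854: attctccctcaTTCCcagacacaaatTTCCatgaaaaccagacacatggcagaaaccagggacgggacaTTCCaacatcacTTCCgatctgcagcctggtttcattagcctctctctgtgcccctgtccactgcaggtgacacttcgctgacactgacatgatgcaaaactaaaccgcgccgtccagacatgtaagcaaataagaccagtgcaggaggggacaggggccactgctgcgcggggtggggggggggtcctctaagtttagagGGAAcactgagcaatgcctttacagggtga
ERG-ETS2 span, all 8 tissues, chr13:202375505-202375804: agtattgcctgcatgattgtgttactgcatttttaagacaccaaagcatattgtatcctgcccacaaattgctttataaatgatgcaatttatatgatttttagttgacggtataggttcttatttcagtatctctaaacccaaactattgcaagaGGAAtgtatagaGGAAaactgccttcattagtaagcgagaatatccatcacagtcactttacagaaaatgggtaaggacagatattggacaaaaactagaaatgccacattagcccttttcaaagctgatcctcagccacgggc

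All 13 spleen-only and all 9 lung-only windows held GGAA on either strand, with a mean of 3.31 and 4.0 matches, where 97.7% of all 8629 spleen-only and 97.1% of all 16758 lung-only regions of the genome held it, with a mean of 3.61 each. A match of this 4-letter core is therefore common in any such window. The longer form GGAAGT, which contains GGAA and was added after values had been seen, was in 2 of the 13 spleen-only windows against 30.9% of those genome-wide, and in 0 of the 9 lung-only windows against 21.9%. GATAA or TTATC, the letters read by GATA factors, was in 4 of 13 and 0 of 9, against 32.9% and 28.8%. All 10 windows open in all 8 tissues held GGAA, with a mean of 3.0 matches, while 2 held GGAAGT and 0 held GATAA. Of the 16832 such regions genome-wide, 94.5%, 19.5% and 16.5% held these. Of the spleen-only windows 2 held all 3 motifs: the one printed from the ERG-ETS2 span, with 4 matches of GGAA, 1 of GGAAGT and 2 of GATAA, and the FLI1 intron region chr9:55668739-55670223, not printed, with 4, 1 and 1.

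ETS1, the lymphocyte regulator, had 308.3 and 216.7 peak bases per Mb of peaks in the spleen of P348 and P350, a mean of 262.5 ± 64.8 (SD, n = 2). The 2 lung libraries had 124.4 and 134.9. Skeletal muscle had 169.9 and 145.6, adipose 150.0 and 163.0, liver 101.0 and 142.2, cerebellum 96.3 and 161.4, cerebral cortex 118.9 and 110.3, and hypothalamus 113.4 and 113.8. Both spleen libraries thus lay above the 14 others, and spleen was 1.99 times the mean of the other 7 tissues and 2.03 times lung. The same held at FLI1, the neighbour of ETS1, with 334.6 and 284.5 in spleen, or 309.6 ± 35.4 (SD, n = 2). Lung had 147.6 and 149.4 there. Liver had 171.5 and 207.3, adipose 175.7 and 119.8, hypothalamus 149.5 and 122.3, cerebral cortex 132.5 and 123.2, skeletal muscle 116.2 and 65.3, and cerebellum 59.3 and 101.5. Spleen was 2.35 times the mean of the other 7 tissues at FLI1. Of all 20674 protein-coding genes taken with the same flanks, 8.08% had both spleen libraries above the 14 others, so ETS1 and FLI1 share this with 1670 genes in all. In bulk tissue, more cells of a type and more open chromatin per cell cannot be told apart.

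The scaling bears on this result. Not scaled, ETS1 held 20.4 and 14.7 kb of peaks in spleen against 14.5 and 19.6 kb in lung, and FLI1 held 22.2 and 19.3 kb against 17.1 and 21.7 kb. On that scale spleen and lung overlapped at both genes, no member had both spleen libraries above the 14 others, and 1.14% of all genes did. When each list was cut to its best 99960 peaks by q-value, ETS1 had 317.3 and 224.8 peak bases per Mb in spleen and at most 216.9 elsewhere, and FLI1 had 337.3 and 291.2 in spleen and at most 200.0 elsewhere. At equal length 4.88% of all genes had both spleen libraries above the 14 others, and ETS1 and FLI1 were among them.

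The 2 genes of the other locus did not follow this order. At ERG, the endothelial regulator, spleen had 190.4 and 162.4 peak bases per Mb and lung 221.4 and 265.3, so both lung libraries lay above both spleen libraries and lung was 1.38 times spleen. Across all genes, 15.8% had lung above spleen in this way. The highest mean of ERG was in hypothalamus, with 440.8 and 256.8, but it rested on P348, since P350 lay below both adipose libraries, 282.6 and 272.3, and below lung of P350. Liver had 152.2 and 272.1, cerebral cortex 195.4 and 157.8, and cerebellum 129.3 and 209.4. ERG was lowest in skeletal muscle, with 55.9 and 53.5. The 2 muscle libraries lay below the 14 others, whose lowest value was 129.3 in cerebellum of P348. The share of all genes with muscle lowest in this way was not counted. Not scaled, ERG held 28.8 and 23.4 kb of peaks in hypothalamus, 35.4 and 22.4 kb in adipose, 25.7 and 38.5 kb in lung, at most 12.6 kb in spleen and 5.5 and 3.9 kb in skeletal muscle, so lung of P350 was then highest. Lung lay above spleen at ERG under each other choice of peaks, scaling and flanks that was tried, except with q under 0.0001, where neither tissue had both libraries above the other.

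ETS2, a gene of 19.2 kb and the shortest of the 4, had 59.8 and 50.4 peak bases per Mb in spleen and 26.9 and 35.1 in lung. Both spleen libraries lay above both lung libraries, as they did for 44.3% of all genes, ETS1 and FLI1 among them. The highest values of ETS2 were in skeletal muscle, 65.7 and 91.3, but adipose, with 38.1 and 71.0, overlapped them. Liver had 57.7 and 37.4, hypothalamus 38.4 and 20.9, cerebral cortex 29.9 and 19.7, and cerebellum, the lowest, 8.3 and 26.0. The order of spleen and lung at ETS2 depended on the peaks used: spleen minus lung was 0.82 on the log2 scale with all peaks, -0.01 with peaks of q under 0.01, -0.81 with q under 0.0001, and -0.12 without scaling, and at equal list length, where it was 0.26, the libraries of the 2 tissues overlapped.

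In the spans the order of spleen and lung differed between the loci. From ETS1 to FLI1, spleen had 99.5 and 70.0 peak bases per Mb against 32.6 and 36.2 in lung, and both spleen libraries lay above the 14 others, the highest of which was 64.7 in adipose of P348. Spleen no longer lay above the 14 others when peaks were counted by number or not scaled. Both spleen libraries still lay above both lung libraries by number, but not without scaling. Spleen minus lung in this span fell from 1.26 on the log2 scale to 0.28 by number and 0.33 without scaling. From ERG to ETS2, spleen had 46.1 and 70.5 against 85.6 and 90.0 in lung, and adipose, with 119.0 and 135.0, lay above the 14 libraries of other tissues. An adipose call of this kind was made for 2.43% of all genes. The lung-over-spleen order in the ERG-ETS2 span turned round when only peaks of q under 0.01 were kept, to 0.64 on the log2 scale, and at equal list length, to 0.40.

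**Figure D1:**
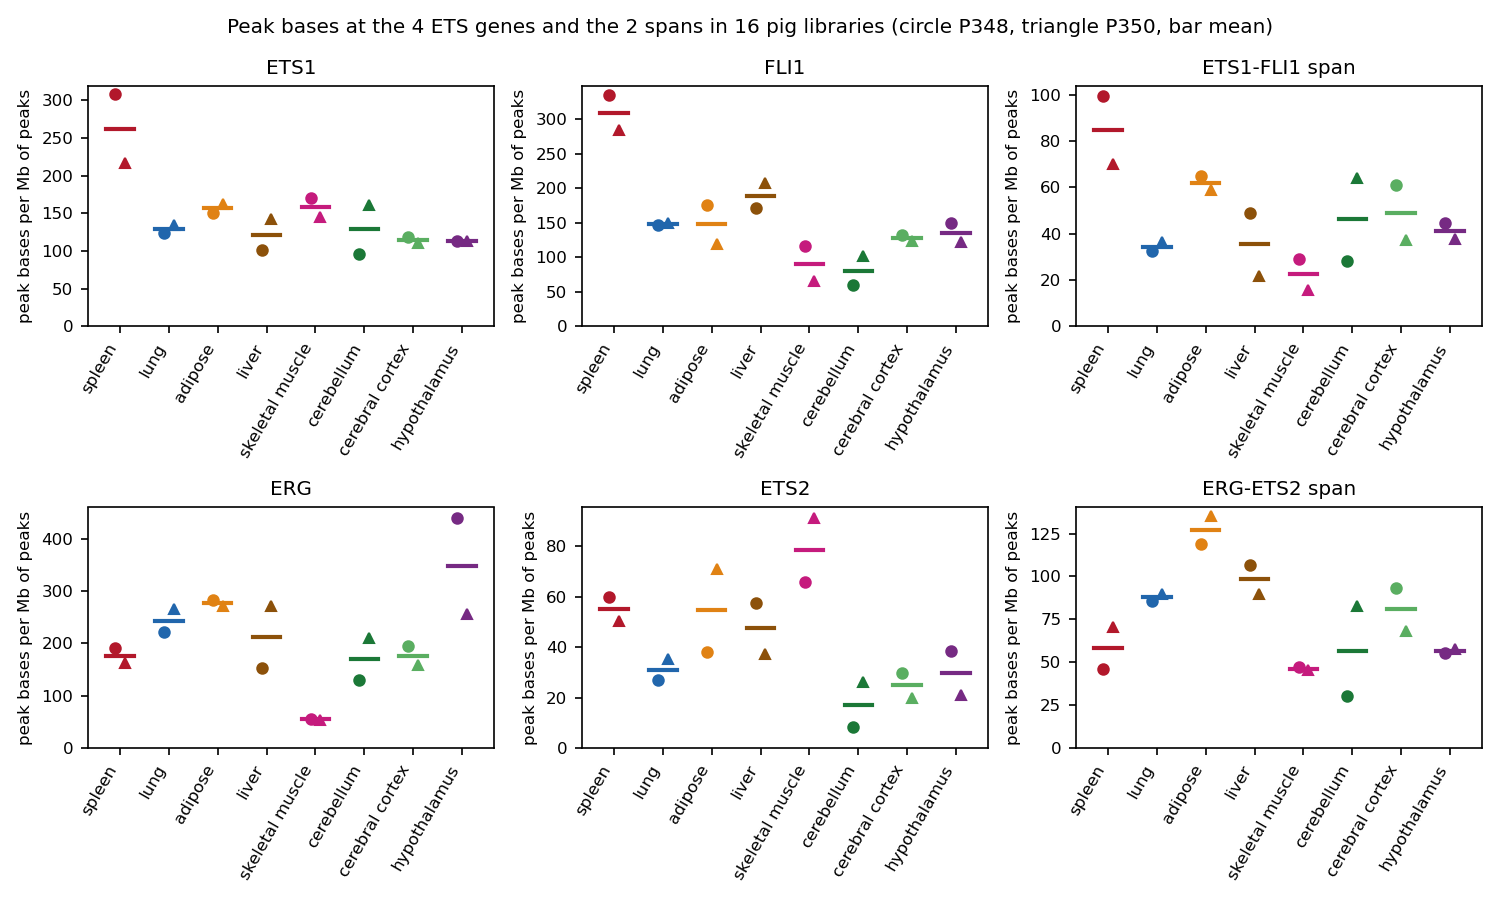
Peak bases per Mb of all peak bases (vertical axis, from 0) at the 4 genes with 10 kb flanks and in the 2 spans, for each tissue (horizontal axis); circles are P348, triangles P350 and bars the mean of the 2 animals. Spleen is above every other library at ETS1 (216.7 and 308.3), FLI1 (284.5 and 334.6) and the ETS1-FLI1 span, whereas ERG is highest in hypothalamus and ETS2 in skeletal muscle.

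In the order of tissue means, few neighbours were apart. At ETS1 the order after spleen was skeletal muscle (157.8), adipose (156.5), lung (129.6), cerebellum (128.9), liver (121.6), cerebral cortex (114.6) and hypothalamus (113.6), and the libraries of neighbours overlapped at every step but 2, spleen to skeletal muscle and adipose to lung. At FLI1 spleen was followed by liver (189.4), and both liver libraries lay above both lung libraries (148.5). Adipose, hypothalamus, cerebral cortex and skeletal muscle followed lung at FLI1, and cerebellum was last (80.4), with a gap between the libraries of cerebral cortex and skeletal muscle. At ETS2 skeletal muscle (78.5) was followed by spleen (55.1), adipose (54.5) and liver (47.5), and spleen, adipose and liver overlapped each other. At ERG the 5 tissues from lung (243.3) to cerebellum (169.3), spleen (176.4) among them, overlapped at each step.

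As differences within each animal, on the scale of log2(peak bases per Mb + 1), spleen minus the mean of the other 7 tissues was 0.99 ± 0.47 at ETS1, 1.30 ± 0.09 at FLI1, 0.65 ± 0.30 at ETS2 and -0.07 ± 0.22 at ERG (SD, n = 2 animals). The median of all genes was 0.33 on this scale, since 66.7% of genes had a larger share of the spleen lists, and relative to it the 4 values were 0.66, 0.97, 0.32 and -0.40. ETS1 was above 86.9% of all genes and FLI1 above 93.8%, and ETS2 and ERG above 70.9% and 27.0%. With P348 left out, ETS1 stood at 0.65, and with P350 left out at 1.32, the widest such gap of the 4 genes. FLI1 gave 1.23 and 1.36 in the same way.

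For lung minus the mean of the other 7 tissues the values were -0.14 ± 0.03 at ETS1, 0.10 ± 0.11 at FLI1, -0.29 ± 0.20 at ETS2 and 0.46 ± 0.17 at ERG (SD, n = 2 animals), beside a median of 0.00 over all genes. ERG was positive in both animals, 0.33 in P348 and 0.58 in P350, and in each alternative, from 0.33 to 0.98. No member had both lung libraries above the 14 others, a call made for 0.406% of all genes. Spleen minus lung was 0.99 ± 0.44 at ETS1, 1.05 ± 0.18 at FLI1, 0.82 ± 0.43 at ETS2 and -0.46 ± 0.35 at ERG, where all genes had a median of 0.28.

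Folds at the annotated starts did not follow the order of peak bases. ETS1 has 2 groups of starts, and the internal one, chr9:55445160, had a peak within 500 bp in all 16 libraries, with folds from 3.46 to 11.77. The highest folds at the internal start were in liver, 11.77 and 9.73, and spleen had 8.84 and 6.59. The outer start of ETS1, chr9:55512180, had a peak within 500 bp in 6 libraries, at 0 to 3.47, and in spleen only P350 had one. The region over that start, chr9:55510083-55512355, was however open in 4 tissues, spleen among them with 3.09 and 2.76. A fold here is the enrichment of the peak over background as listed, and 0 stands for no peak.

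FLI1 has 3 groups of starts. The outermost, chr9:55612905, had a peak in both cerebral cortex libraries (3.39 and 4.17) and in hypothalamus of P350 (3.64), and in none of the other 13 libraries, spleen among them. The inner ones, chr9:55620193 and chr9:55621460, each had a peak in 13 libraries, and spleen had 2.76 and 2.42 at both. The gene LOC100516820 overlaps this part of FLI1, and peaks cannot be assigned to one or the other.

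ETS2 has 1 group of starts, at chr13:202464341, with a peak in all 16 libraries at 2.62 to 4.88. At the outer start of ERG, chr13:202302572, lung had folds of 3.71 and 4.43 and neither spleen nor muscle had a peak within 500 bp, while the inner start, chr13:202129355, had one in 14 libraries, with 3.13 and 3.20 in spleen and 2.82 and 2.96 in lung. A region next to the outer ERG start, chr13:202300806-202302486, was open in all 8 tissues, at 3.48 and 3.13 in spleen, so the outer start lay at the edge of open chromatin there.

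Of the 124 merged regions of the ETS1-FLI1 locus 80 were open in a tissue, and of the 142 of the ERG-ETS2 locus 79. Spleen had 44 open regions at ETS1-FLI1, the highest number of the 8 tissues, and 15 at ERG-ETS2, the lowest. Lung had 36 and 39. Over all regions of the genome, 67887 were open in spleen and 119629 in lung. The counts at the loci are not scaled to such totals, so their order over tissues also reflects list length. Skeletal muscle had 20 and 17, and of its open regions 8 lay in the short ETS2 window, where every region open in any tissue was open in muscle. Most open regions were intronic at both loci, 46 of 80 and 45 of 79, with 5 and 4 within 2 kb of a start of an mRNA (TSS proximal).

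**Figure D2:**
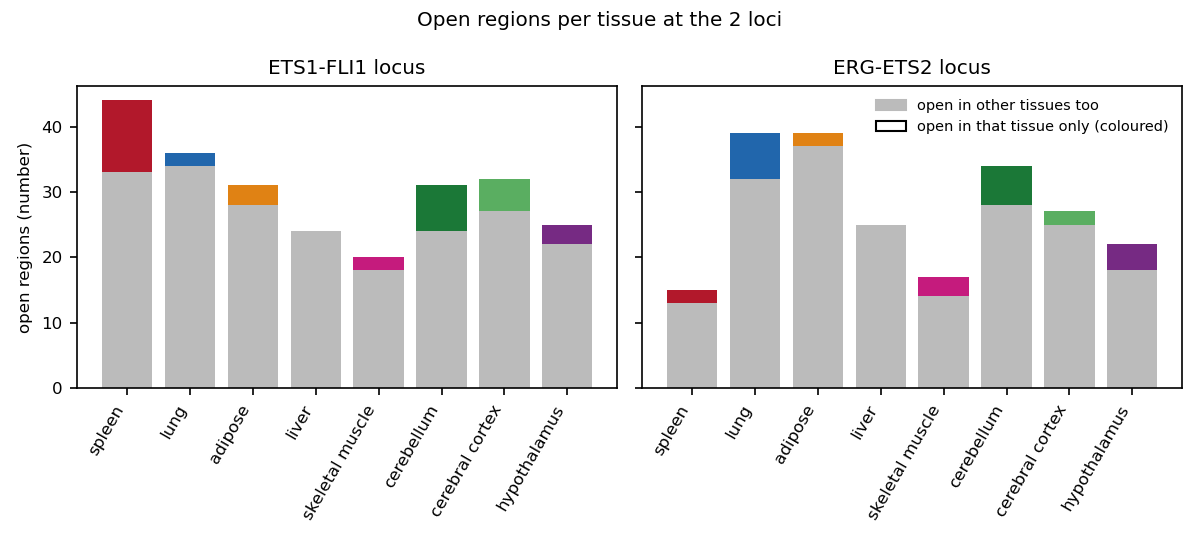
Number of open regions (vertical axis, from 0) in each tissue (horizontal axis) at the ETS1-FLI1 locus (left) and the ERG-ETS2 locus (right); grey is open in other tissues too and the coloured top is open in that tissue only. Spleen has 44 open regions on the left, 11 of them spleen only, and 15 on the right, 2 of them spleen only.

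Of the 44 spleen-open regions of the ETS1-FLI1 locus, 11 were open in no other tissue, or 25.0%, beside 12.7% of all 67887 spleen-open regions. At ERG-ETS2 it was 2 of 15, or 13.3%. For lung, the share was 2 of 36, or 5.56%, at ETS1-FLI1 and 7 of 39, or 17.9%, at ERG-ETS2, beside 14% of all 119629. With P348 left out, 6 regions of the ETS1-FLI1 locus were open in spleen only, and with P350 left out 12.

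The label of open in spleen only allows a peak in 1 animal of another tissue. Of the 13 regions 4 had no peak in any library outside spleen, where 43.8% of the 8629 spleen-only regions had none, and the most that 1 region had was 4. None of the 9 lung-only regions was free of peaks elsewhere, where 24.5% of the 16758 lung-only regions were.

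Within ETS1, 4 spleen-only regions lay in introns. The strongest, chr9:55486906-55487585, had folds of 6.28 and 4.76 in spleen and lay 24.5 kb from the nearest ETS1 start. It also had a peak in lung of P348 (3.18), adipose of P348 (3.04), liver of P350 (2.69) and skeletal muscle of P348 (2.26). The next, chr9:55435470-55436092, 9.1 kb from the internal start, had 3.83 and 3.89 in spleen, 2.78 in skeletal muscle of P350 and 2.35 in cerebellum of P350. The other ETS1 regions, chr9:55463316-55463735 (3.09 and 2.62) and chr9:55484625-55485798 (3.54 and 2.27), had a peak in no library outside spleen.

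Within FLI1, 5 spleen-only regions lay in introns and 1 lay just past the end of the gene. The one with the highest fold in the weaker animal, chr9:55640996-55641267, had 3.31 and 3.36 in spleen, 19.5 kb from an inner start, and lung of P350 had 3.43 there, above both. A region chr9:55638544-55639616, 17.1 kb from that start, had 3.69 and 3.16 and no peak outside spleen. The remaining intronic regions of FLI1 were chr9:55651276-55651553 (2.89 and 2.69), chr9:55668739-55670223 (4.56 and 3.07) and chr9:55715420-55716158 (2.84 and 2.90). Liver of P350 had 2.56 at the first and 2.75 at the last. The middle one had a peak in 4 libraries of other tissues, up to 2.86 in cerebral cortex of P350. The region past the gene was chr9:55750177-55751107 (2.52 and 3.05), where hypothalamus of P350 had 2.78, above the weaker spleen library.

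Between the genes there were 3. In the ETS1-FLI1 span, chr9:55588246-55589013 had 4.92 and 3.30 in spleen and a peak in 4 libraries of other tissues, the highest being 3.51 in cerebral cortex of P350. In the ERG-ETS2 span, chr13:202428266-202429283, 35.1 kb from the ETS2 start, had 5.04 and 3.33 in spleen and 3.22 in adipose of P348. The other, chr13:202373155-202374131, had 3.41 and 2.93 and no peak outside spleen. It lay beside chr13:202375004-202376306, which was open in all 8 tissues at 3.81 to 7.06.

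Of the 13 spleen-only regions 9 were intronic and 4 intergenic, and none was exonic or TSS proximal. Their distance to the nearest start of a member ran from 9.1 to 128.7 kb. Of the 9 lung-only regions 7 lay in introns of ERG, at 10.9 to 75.6 kb from a start, and their weaker folds were 2.29 to 2.89. Both lung folds lay above all other libraries at chr13:202055800-202056063, chr13:202117286-202118433 and chr13:202224478-202226969, but not at the rest. At chr13:202177363-202178483 lung had 2.47 and 2.75, below cerebral cortex of P348 (3.22) and hypothalamus of P348 (3.1). At chr13:202246285-202246988 lung had 2.74 and 3.22, below liver of P350 (3.39). At chr13:202171297-202173336 and chr13:202258265-202259692 only the weaker lung fold was exceeded. The lung-only FLI1 intron region, chr9:55737376-55737914, had 3.53 and 3.40 in lung, 3.28 in spleen of P348 and 2.60 in cerebral cortex of P350. The last, chr9:55564383-55565786 in the ETS1-FLI1 span, had 3.33 and 2.36 in lung. Cerebral cortex of P348 had 2.58 there, above the weaker lung library.

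**Figure D3:**
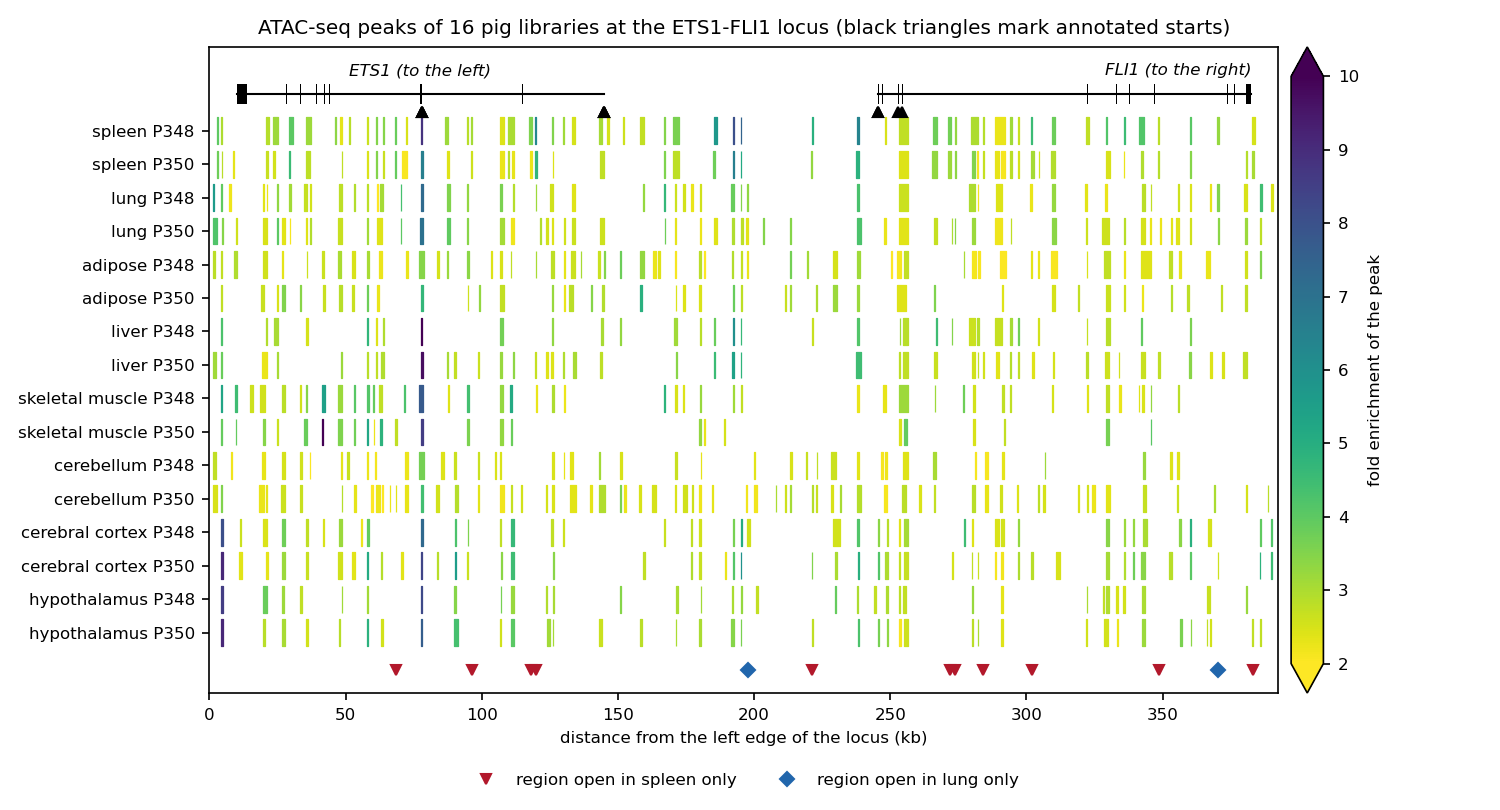
Peaks of the 16 libraries (rows) along the ETS1-FLI1 locus (horizontal axis, kb from its left edge, to scale), coloured by fold enrichment, with exons and annotated starts of the genes on top and regions open in spleen only (red) or lung only (blue) marked below. The 11 spleen-only regions lie over both gene bodies, the span and past the end of FLI1, at least 9.1 kb from the starts.

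**Figure D4:**
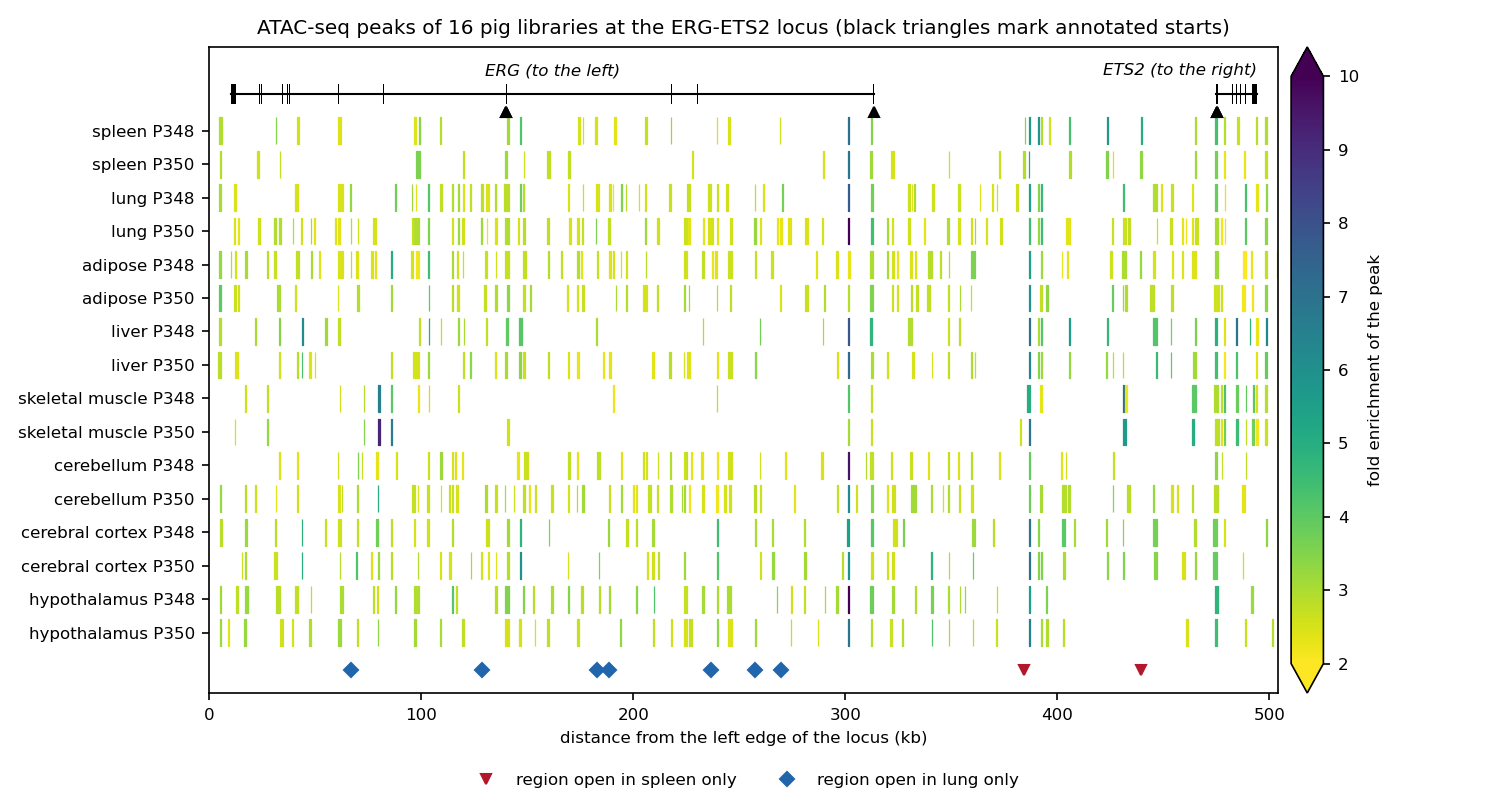
Peaks of the 16 libraries (rows) along the ERG-ETS2 locus (horizontal axis, kb from its left edge, to scale), coloured by fold enrichment and marked in the same way. The 7 lung-only regions lie within ERG and the 2 spleen-only regions in the span, and skeletal muscle has few peaks within ERG.

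The 6 regions with the highest fold in the weaker spleen library were all open in other tissues too, the internal ETS1 start among them, and 3 of them are named here after their values were seen. In the ETS1-FLI1 span, chr9:55558949-55559858 had 8.05 and 6.59 in spleen, above the other 14 libraries, of which liver of P348 was highest at 6.0; lung had 3.86 and 2.94. It was open in 6 tissues and had no peak in cerebellum. A region upstream of FLI1, chr9:55604740-55606587, 6.3 kb from its outermost start, had 6.42 and 4.89 in spleen and 4.30 and 4.28 in lung and was open in 7 tissues. The ERG intron region chr13:202290074-202291336 had 7.09 and 6.85 in spleen and 7.69 and 10.19 in lung, with 10.91 in hypothalamus of P348 and 2.30 in adipose of P348. It was open in all 8 tissues, lay 11.2 kb from the outer ERG start, and had the highest fold of any ERG region in either spleen library.

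Both skeletal muscle libraries had folds above the 14 others at 8 of 20 muscle-open regions of ETS1-FLI1 and 6 of 17 of ERG-ETS2. For spleen the same held at 10 of 44 and 3 of 15, and for lung at 4 of 36 and 5 of 39. The share over all regions of the genome is not given here. Of the muscle regions 3 are named, also after their values were seen. An exonic region of ETS1, chr9:55408500-55409691, had 5.48 and 10.71 in muscle and at most 2.67 elsewhere. An intronic region of ERG, chr13:202066634-202069704, had 6.52 and 9.15, with 5.01 in cerebellum of P350 next. In the span, chr13:202419712-202423767, 40.6 kb from the ETS2 start, had 7.05 and 5.66, with 4.46 in lung of P348 next.

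**Figure D5:**
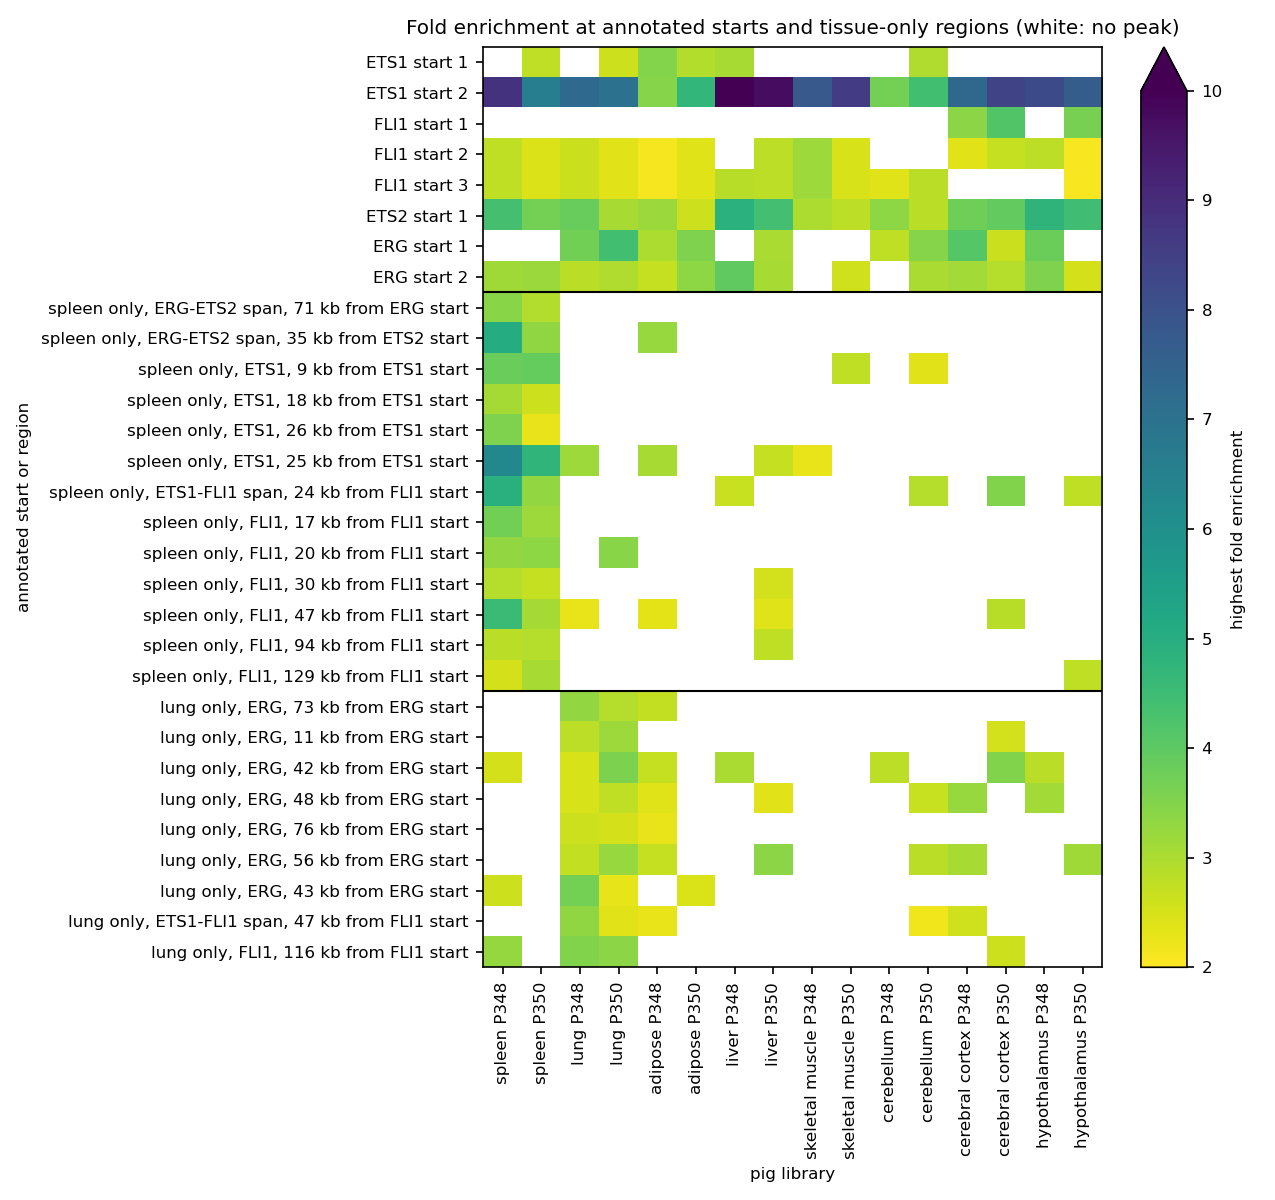
Highest fold enrichment (colour) in each pig library (columns) at the annotated starts of the 4 genes (top rows, numbered from the outermost start of each gene), the 13 spleen-only regions (middle) and the 9 lung-only regions (bottom); white is no peak. The internal start of ETS1 and the start of ETS2 have a peak in all 16 libraries, and the lung-only regions also have peaks in 1 to 6 libraries of other tissues.

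Over the 16 libraries, which share animals and list totals, Pearson's r of the log2 levels was 0.59 for ETS1 with FLI1, 0.55 for ETS1 with ETS2, 0.42 for FLI1 with ERG and -0.27 for ERG with ETS2. Without the 2 spleen libraries, a choice made after seeing the data, these became 0.08, 0.59, 0.60 and -0.27 over 14 libraries. ETS1 and FLI1 were chosen by their spleen values, so their r with spleen included is not independent of that choice. Why it was lower without spleen was not tested.

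Among genes over 1 Mb away, those most like ETS1 over the 16 libraries were MAN2B1 (r = 0.86), a lysosomal mannosidase, RUNX3 (0.85), a transcription factor of T cells, SLA-DMB (0.82), a class II histocompatibility gene, ARPC5L (0.81) and CATSPERZ (0.81). Among those most like FLI1 were SLC2A3 (0.91), a glucose transporter, LYN (0.90), a kinase of B cell receptor signalling, SASH3 (0.90), a lymphocyte adaptor, and ARHGAP25 (0.90). Each gene named here for ETS1 and FLI1 had its highest mean in spleen. The 5 most like ETS2 were WDR62, COPG1, DPF2, LONP1 and LOC110260076, each at 0.95, and the first 4 were highest in skeletal muscle. The 5 most like ERG were LOC100622606 (0.95), MYO16 (0.94), LOC110255328 (0.93), BACE2 (0.93), on the same chromosome as ERG, and LOC100627093 (0.92), of which 4 were highest in hypothalamus and BACE2 in adipose. These are the top of 18047 to 18052 genes ranked on the same libraries and are given as a description.

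In the rest of the ETS family, 23 further genes were listed and all were in the annotation. Both spleen libraries lay above the 14 others in 4 of 23, both lung libraries in 0 of 23, and spleen above lung in 13 of 23, with lung above spleen in 2. Over all genes the shares of these calls were 8.08%, 0.406%, 44.3% and 15.8%. SPIC, a factor of red pulp macrophages, had 122.1 and 114.7 peak bases per Mb in spleen, 29.1 and 15.2 in lung and at most 64.9 outside spleen. ELF1, a factor of lymphoid cells, had 218.7 and 236.8 in spleen against at most 148.9 elsewhere. ELF4, active in natural killer and T cells, had 121.7 and 108.4 against at most 88.0, and ETV7 had 58.8 and 48.1 against at most 39.9. ELF5 and EHF, factors of epithelia, were those with lung above spleen, at 56.1 and 44.3 and at 75.3 and 84.3 in lung. Neither was highest in lung: the highest mean of ELF5 was in liver and that of EHF in cerebellum. Libraries outside lung reached 103.2 at ELF5 and 117.0 at EHF. The median spleen minus others of the 23 genes was 0.47, beside 0.33 over all genes.

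The tissue labels were read against marker genes. Of 10 lymphocyte markers 6 (PTPRC, CD3E, CD3G, LCK, CD79A and CD5) had both spleen libraries above the 14 others and 10 had spleen above lung; their summed level was 867.3 to 932.7 in spleen, 380.3 to 396.3 in lung and 99.9 to 559.7 in the other tissues. Of 10 endothelial markers none had spleen above the 14 others, 1 (PECAM1) had spleen above lung and 4 (TIE1, VWF, EMCN and EGFL7) had lung above spleen, with sums of 448.3 to 501.7 in spleen, 537.0 to 573.3 in lung and 286.7 to 651.0 elsewhere. Of 6 lung epithelium markers 3 (SFTPB, SFTPC and SFTPA1) had lung above spleen, and none had both lung libraries above the 14 others. Their sums were 225.9 to 226.4 in lung, 146.3 to 245.8 in spleen and 66.2 to 223.8 elsewhere, so the peaks set lung apart by these genes only in part. Of 5 megakaryocyte and platelet markers 4 were in the annotation, and 1 (GP9) had spleen above lung; their sums were 95.5 to 125.5 in spleen and 84.6 to 111.2 in lung. All genes gave 8.08% with spleen above the 14 others, 0.406% with lung above them, 44.3% with spleen above lung and 15.8% with lung above spleen. No marker was at 0 in a spleen or lung library. The summed lymphocyte markers were thus higher in spleen, as ETS1 and FLI1 were, and the summed endothelial markers higher in lung than in spleen, as ERG was. Their part in the results at the 4 genes was not tested.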

How the data were processed

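ATAC-seq peaks of the 16 pig libraries (8 tissues of 2 littermates) were used as deposited, 1 list per library. Per the labels and the study's methods, the authors trimmed reads with Trim Galore 0.4.5, aligned them to the Sscrofa11.1 assembly with BWA 0.7.17 and filtered them with SAMtools 1.10 and Picard 2.18.17 (versions from the submitters' processing notes), and called broad peaks with MACS2 at a q-value limit of 0.05. The lists nevertheless held 1.54 to 16.27% of peaks per library whose listed q-value was above 0.05, and these were kept. In the deposited lists, column 7 is the fold enrichment over background, a ratio, and column 9 is the −log10 of the q-value, both made by the authors. Read counts were not analysed here, so sequencing depth was not taken into account and only list length was. The share of peaks with q above 0.05 did not simply follow list length. It was 14.84% in spleen of P350, with 104299 peaks, and 5.28% in cerebral cortex of P350, with 164080. All 270 sequence names of the lists matched the RefSeq Sscrofa11.1 assembly and 0 peaks ran past a sequence end.

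Peak bases in each gene with 10 kb on either side were counted and divided by all peak bases of the library. Log2 differences were taken within each animal with a pseudocount of 1. Regions were merged from peaks sharing at least 1 base, 533944 in all, of which 284109 were open in a tissue. Their midpoint assigned them to a gene window or span. Exon, intron and TSS proximal places came from overlap of the whole region, and distances to a start from its nearer edge. Starts within 500 bp were grouped. A tissue was called apart when both of its libraries lay above all others. The members and gene lists were chosen with earlier results of these data known, so no test was run; replicates are 2 animals, and differences are read against their spread. Genes named are the 4 members, the 5 most like each (Pearson's r, genes with a peak in at least 12 libraries and over 1 Mb away), of which 1 is not reported here, all spleen-only and lung-only regions, with the 5 of highest weaker fold in full, and called genes of the ETS list; regions named after their values were seen are said to be so. Alternatives were stricter q-values, equal list lengths, peak numbers, weighting by fold, no scaling, other flanks, pseudocount, merging and overlap, and leaving out each animal. The counting was tested on simulated data. Python 3.11.15, numpy 2.4.6, pandas 2.3.3 and pysam 0.24.0 were used. Nothing of the 15 cattle libraries of the 31 was used.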

Additional observations from a re-analysis of the deposited data

How the results depend on the processing

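No test was run, paired or not, because the members were chosen with results of these data known. The differences themselves were taken within each animal. A value was held to have moved when it shifted by more than the SD of the 2 within-animal differences, and a count when it shifted by over 1.5 times. Leaving out 1 of 2 animals cannot move a difference by this measure, so its range is given instead. Of the other 122 recomputed differences 69 did not move and 48 moved. The remaining 5 changed sign where the libraries had been apart. Sign changes where they had not been apart are among the 69 and 48, and 107 of the 122 kept the sign of the value given above. Of 36 recomputed counts 25 did not move. The cause of each shift was not tested.

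Spleen minus the other 7 tissues (log2) was, without scaling, 0.43 at ETS1, 0.74 at FLI1, 0.10 at ETS2 and -0.64 at ERG; with q under 0.01, 1.93 at FLI1, -0.04 at ETS2 and -0.73 at ERG; with q under 0.0001, 4.25 at FLI1; at equal length, 0.30 at ETS2 and 0.31 at ERG; by peak number, 0.83 at FLI1 and -0.31 at ERG; with 2 kb flanks, 0.31 at ETS2. Leaving out an animal gave 0.65 to 1.32 at ETS1, 1.23 to 1.36 at FLI1, 0.44 to 0.86 at ETS2 and -0.23 to 0.09 at ERG.

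For lung minus the other 7 tissues, ETS1 gave 0.10 and 0.61 with q under 0.01 and 0.0001, 0.13 at equal length, -0.01 weighted by fold, 0.38 without scaling, -0.20 without flanks and -0.21 with 2 kb flanks. FLI1 gave 0.61, 2.35, 0.42, 0.27 and 0.62 under the first 5 of these, and -0.14 by peak number. ETS2 gave -0.03 and 1.53 with the q limits, 0.00 at equal length, 0.24 without scaling and -0.50 with 2 kb flanks, and ERG 0.92 and 0.78 with the q limits and 0.98 without scaling. Leaving out an animal gave -0.17 to -0.12, 0.02 to 0.17, -0.43 to -0.15 and 0.33 to 0.58 at ETS1, FLI1, ETS2 and ERG.

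Spleen minus lung without scaling was 0.04 at ETS1, 0.10 at FLI1, -0.12 at ETS2 and -1.42 at ERG. FLI1 gave 1.66 with q under 0.0001, 0.84 at equal length and 0.85 by peak number. ETS2 gave -0.01 and -0.81 with the q limits and 0.26 at equal length, and ERG -1.44 with q under 0.01. The ERG-ETS2 span gave 0.64 with q under 0.01 and 0.40 at equal length, against -0.61. Leaving out an animal gave 0.68 to 1.30, 0.93 to 1.18, 0.51 to 1.12 and -0.70 to -0.22 at ETS1, FLI1, ETS2 and ERG.

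Spleen-only regions of the ETS1-FLI1 locus numbered 3 when no library of another tissue could have a peak and 7 when either animal sufficed, and of the ERG-ETS2 locus 1 under the first of these. Lung-only regions numbered 0 at both loci under the first, 5 at ETS1-FLI1 and 2 at ERG-ETS2 with q under 0.0001, and 4 at ERG-ETS2 at equal length. Leaving out an animal gave 6 to 12 and 2 to 4 spleen-only regions, and 1 to 3 and 10 to 10 lung-only regions.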
